A study of Mus musculus with 14 samples.

Results

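The core circadian clock of the mouse lung was followed through 10 genes, Per1, Per2, Per3, Cry1, Nr1d1, Nr1d2, Dbp, Bmal1, Clock and Npas2, out of 30568 genes tested on the arrays. They were chosen by name, and their probes were found through the RefSeq accession that each array gives for a probe, which matched 19 of 56605 probes. All 10 genes had a probe, and 9 passed the background filter, with 16 probes. Npas2 was left without a value, since its only probe was not well above background on any of the 14 arrays. Of the 30568 genes tested, 17288 had a gene symbol. Each of the rest was a single probe without a symbol, counted as a gene in all shares of genes below.

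Whole lungs of male C57BL/6N mice were taken 1 month after instillation into the trachea, and each array held the RNA of 1 lung. The control group received PBS, the vehicle (n = 5). The fibre groups each received 200 µg per mouse of carbon fibre, which was either not yet recycled (VCF, n = 3), carbonized (CCF, n = 3) or fired (RCF, n = 3). No allele or further agent is named, all mice share strain and sex, and the hour at which the mice were killed is not stated in the labels. The arrays come from independent animals per the design text. The p-values for group differences measure the spread between these mice together with any spread between array slides, for which the main fit had no term.

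The clock is a loop of transcription factors that turns once a day in almost every cell, lung epithelium and fibroblasts included. CLOCK or NPAS2 pairs with BMAL1 and switches on Per, Cry, Nr1d and Dbp genes through E-boxes. PER and CRY proteins then block that pair, NR1D proteins repress Bmal1 through ROR elements, and DBP drives genes with D-boxes. In peripheral tissues of the mouse Bmal1, Clock, Npas2 and Cry1 peak from late night to dawn (called night-phase genes below), and the Nr1d, Dbp and Per genes peak between midday and early night (day-phase genes), so that with 1 sample per mouse the state of the clock and the hour of sampling cannot be told apart.

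Promoter windows of the members were searched for these elements. RefSeq windows on build GRCm38.p6, from 250 bases before to 50 after each start, were matched for 9 of the 10 genes, all but Per2 (13 windows). The motifs below were searched on both strands and are shown in capitals, on the gene's own strand and 5′ to 3′, because each is the element through which the proteins of other members are known to act.
Per1, E-box, chr11:69098771-69098800, plus strand: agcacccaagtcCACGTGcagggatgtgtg
Cry1, E-box, chr10:85185097-85185126, minus strand: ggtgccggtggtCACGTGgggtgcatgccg
Per1, D-box, chr11:69098914-69098943, plus strand: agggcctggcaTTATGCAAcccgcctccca
Per3, first D-box, chr4:151044852-151044881, minus strand: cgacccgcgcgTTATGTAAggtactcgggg
Per3, the other D-box, chr4:151044805-151044834, minus strand: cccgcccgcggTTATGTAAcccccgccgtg
Bmal1, ROR element, chr7:113207530-113207559, plus strand: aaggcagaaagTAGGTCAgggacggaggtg
Nr1d2, ROR element, chr14:18239166-18239195, minus strand: gattggaagaagAGGTCAggaccgctcgtt
The E-box CACGTG lay 166 bases before a start of Per1 and 60 before that of Cry1, in 2 of the 13 member windows, and 7.15% of all 32817 windows held it. The D-box, TTATGTAA or TTATGCAA, lay 205 and 158 bases before a start of Per3 and 24 before that of Per1, also in 2 of 13 windows, against 1.66% of all windows. The ROR element AGGTCA, present in 16.3% of windows, was found in 4 of the 13, those of Bmal1, Clock, Nr1d2 and Per1. With a leading T (TAGGTCA, which contains AGGTCA, 2.61% of windows) it was found in 1 window, of Bmal1, 30 bases after a start. The cAMP element TGACGTCA (1.79% of windows) was matched in 0 of the 13 windows, and its shorter form TGACG, which the longer one contains (20.8% of windows), in 3 windows, of Per1 and Cry1. These are matches of letters and were not measured as bound sites.

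Values below are log2 of the processed signal minus the 75th percentile of the array, so that 0 is that percentile. Values of a group are listed in the order of its replicate numbers. Levels are compared between mice for 1 probe and never between probes. Differences are in log2 with the standard error (±) of limma, a linear model fitted to all genes with the 4 groups, where adjusted p follows Benjamini-Hochberg across the whole table of a comparison, with a threshold of 0.05. The arrays stood on 3 slides. Slide 3 carried control 4 and 5 with RCF 2 and 3, slide 2 carried replicate 3 of each other group, and slide 1 the remaining 7. VCF and CCF thus had no array on slide 3. With slide as a random block, limma estimated a correlation of 0.33 between arrays of the same slide. VCF 1, CCF 2 and RCF 1 were dim, with a 75th percentile of 277, 323 and 375 in intensity, against 891 to 2953 on the other arrays. All 10 lung markers, such as the surfactant gene Sftpc, were well above background on every array. The mean of the neutrophil markers (13 of 14 measured), against the control mean, was 0.76 to 1.65 in VCF, −1.46 to −0.74 in CCF, −0.98 to 0.41 in RCF and −0.44 to 0.53 among controls. The 5 B cell markers lay at −0.73 to −0.57 in VCF, −0.82 to −0.48 in CCF, −0.73 to −0.49 in RCF and −0.36 to 0.30 among controls. The part of these cell types, of slide and of brightness in the clock gene values was not tested beyond the values given below. In whole lung, a change in the share of cells and a change in RNA per cell cannot be told apart.

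Against vehicle, 2 of the 9 members rose in CCF lungs, Nr1d2 and Per2, where 5.99% of all genes were called, and 3.79% called higher. In VCF and RCF lungs limma called 0 of 9, against 0.0851% and 0.154% of all genes. There 4 of 9 members in each had an unadjusted p under 0.05, against 9.96% and 12.9% of all genes. In CCF 3 of 9 had, against 23.7%. Members not overlapping the controls numbered 1 of 9 in VCF, 3 in CCF and 3 in RCF, against 7.38%, 16.3% and 11.4% of all genes. The member with the largest difference was Per2 in VCF (1.08) and CCF (1.24), and Cry1, whose probe was close to background, in RCF (1.27). Per2 was higher than in every control in all 9 fibre-treated lungs. Nr1d2 stood higher in CCF and RCF and at the control level in VCF, while Dbp and Nr1d1 had their lowest group means in VCF. Without the 3 dim arrays (VCF 1, CCF 2 and RCF 1, described above) 1 member was called in CCF, Nr1d2.

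**Figure D1:**
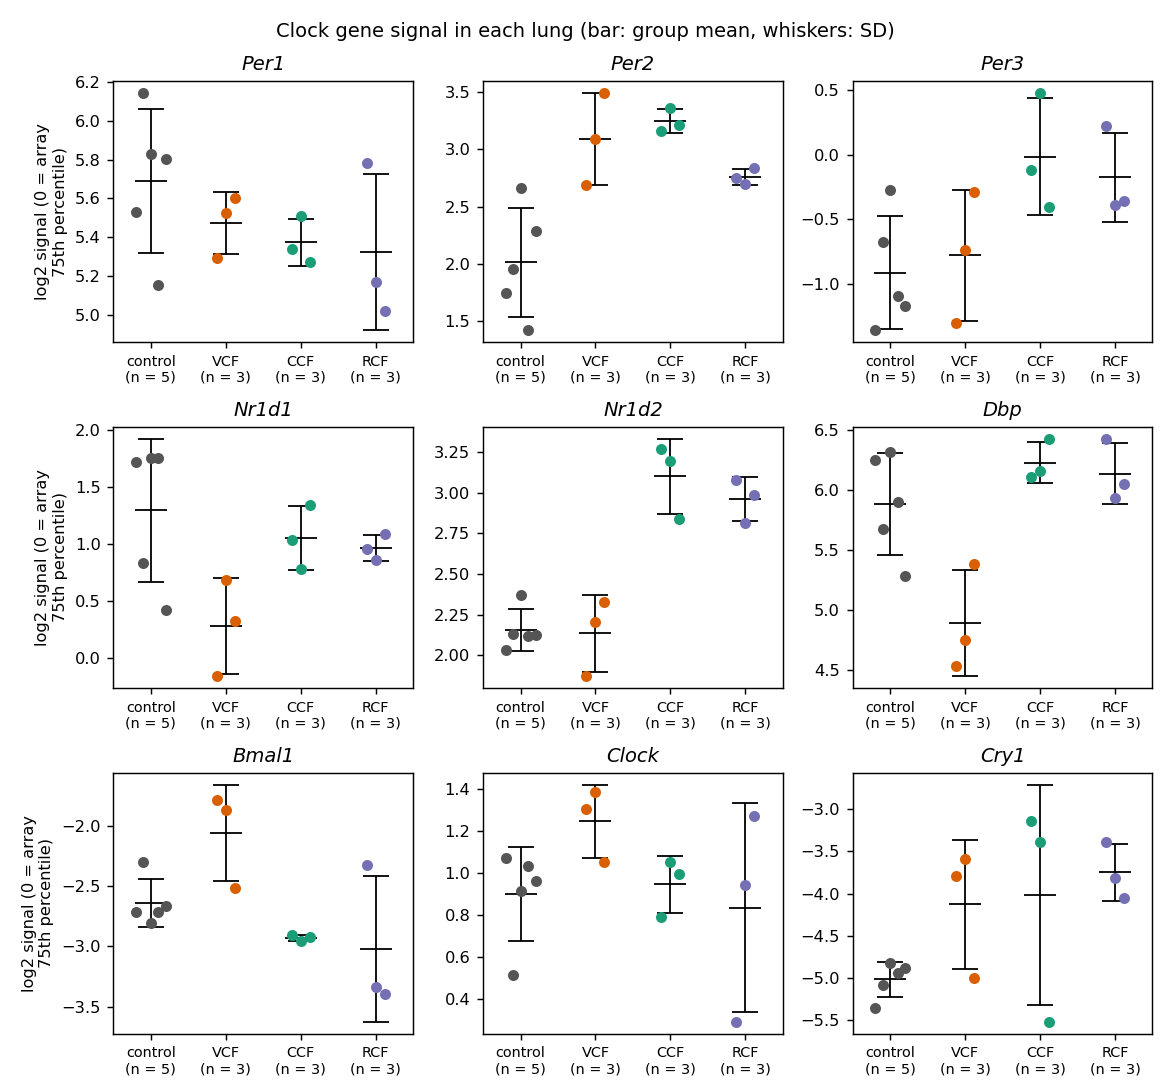
Log2 signal (0 is the 75th percentile of the array) of the 9 measured clock genes in each of the 14 lungs, by group. Points are single mice, the bar is the group mean and the whiskers are the SD. Nr1d2 splits into control and VCF (1.87 to 2.37) against CCF and RCF (2.81 to 3.27), a split picked after the values were seen. Dbp has its lowest group mean in VCF.

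Per2, a repressor of its own loop, measured 1.75, 1.95, 2.66, 1.42 and 2.28 in the 5 controls. The VCF lungs read 2.69, 3.09 and 3.49, the CCF lungs 3.16, 3.36 and 3.22 and the RCF lungs 2.75, 2.69 and 2.84. Every fibre-treated lung lay above the highest control, and a gap of this kind to the controls was seen for 7.38% of all genes in VCF, 16.3% in CCF and 11.4% in RCF. Per2 rose in CCF by 1.24 ± 0.25 (2.36-fold, adjusted p = 0.0207, limma). The difference was 1.08 ± 0.25 in VCF (2.11-fold, adjusted p = 0.156) and 0.75 ± 0.25 in RCF (1.68-fold, adjusted p = 0.229), neither past the threshold in limma. The 3 comparisons share the same 5 controls.

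The call for Per2 in CCF rested on few arrays and on 1 probe. It was lost without CCF 1 (adjusted p = 0.0597), without CCF 2 (adjusted p = 0.0879) and without CCF 3 (adjusted p = 0.0588), at differences of 1.18 to 1.28. Within slide 1 Per2 differed by 1.42 and within slide 2 by 0.56. The other Per2 probe was well above background on 5 of 14 arrays, in 0 of 3 CCF lungs, and stood at −0.32 ± 0.53 in CCF. As a mean of both probes the difference in CCF was 0.46 (adjusted p = 0.433).

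Per1, which responds quickly to light and hormone signals in other tissues, read 5.53, 6.14, 5.83, 5.15 and 5.80 in the 5 controls. After fibre it read 5.29, 5.52 and 5.60 (VCF), 5.34, 5.51 and 5.27 (CCF) and 5.78, 5.17 and 5.02 (RCF). All fibre-treated lungs but RCF 3 lay inside the range of the controls. The 95% confidence interval of the difference ran from −0.71 to 0.27 in VCF, from −0.81 to 0.17 in CCF and from −0.86 to 0.12 in RCF, so that changes of these sizes could not be resolved.

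Per3, the least essential of the Per genes for rhythm, stood at −1.36, −0.67, −0.27, −1.09 and −1.17 in the 5 controls. Lungs given VCF measured −1.30, −0.74 and −0.29, those given CCF −0.12, 0.48 and −0.41 and those given RCF 0.22, −0.39 and −0.36. CCF and RCF lungs lay toward the top, but control 3 (−0.27) reached into both. The difference was 0.90 ± 0.31 in CCF (adjusted p = 0.101) and 0.74 ± 0.31 in RCF (adjusted p = 0.328), not past limma's threshold. The other Per3 probe gave 0.81 ± 0.25 in CCF and 0.54 ± 0.25 in RCF. Within slide 1 the CCF difference was 1.20 and within slide 2, with 1 array a group, −0.13. In VCF the difference was 0.14 (95% confidence interval −0.53 to 0.80), and it turned to −0.05 with slide as a block.

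Cry1, the night-phase partner of the PER proteins, was close to background, with its probe well above it on 10 of 14 arrays (3 of 5 control, 2 of 3 VCF, 2 of 3 CCF and 3 of 3 RCF). It measured −5.36, −5.08, −4.83, −4.95 and −4.89 in the 5 controls. The VCF lungs read −3.79, −3.58 and −5.00, the CCF lungs −3.14, −3.39 and −5.53 and the RCF lungs −3.38, −3.81 and −4.05. VCF 3 and CCF 3, which share slide 2, stood at the control level, while the other 7 fibre-treated lungs lay above every control. Of the groups only RCF lay above the controls as a whole, a gap seen there for 11.4% of all genes. Differences were 0.89 ± 0.48 in VCF (adjusted p = 0.596), 1.00 ± 0.48 in CCF (adjusted p = 0.235) and 1.27 ± 0.48 in RCF (adjusted p = 0.283), none past limma's threshold. Without CCF 3 the CCF difference passed (1.76, adjusted p = 0.0399). The other Cry1 probe, above background on 8 of 14 arrays, lay on the opposite side in each group, at −0.12 ± 0.59, −0.76 ± 0.59 and −0.27 ± 0.59.

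Nr1d2 encodes REV-ERB beta, a nuclear receptor that represses Bmal1. The controls read 2.03, 2.13, 2.37, 2.12 and 2.13, and the VCF lungs 1.87, 2.20 and 2.33. The CCF lungs read 3.27, 3.20 and 2.84, and the RCF lungs 3.08, 2.81 and 2.98. All 6 CCF and RCF lungs lay above all 8 control and VCF lungs, a split picked after the values were seen. Its share over all genes was not counted. Between single groups, such a gap was seen for 16.3% of all genes (CCF and control), 11.4% (RCF and control), 19% (CCF and VCF) and 15.5% (RCF and VCF). Nr1d2 rose in CCF by 0.95 ± 0.15 (1.93-fold, adjusted p = 0.00986, limma). In RCF it differed by 0.80 ± 0.15 (1.75-fold, adjusted p = 0.0660), which did not pass limma's threshold without a block and passed with slide as a fixed block (0.84, adjusted p = 0.0383). In VCF it differed by −0.02 (95% confidence interval −0.34 to 0.30).

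A second probe of Nr1d2 moved with the first. Against control it stood at 1.12 ± 0.20 in CCF, which passed limma over all probes (adjusted p = 0.0139, with 6.22% of probes called), at 0.76 ± 0.20 in RCF and at 0.17 ± 0.20 in VCF. Within slide 1 the CCF difference of the first probe was 1.15 and within slide 2 it was 0.47. The call in CCF held without each array in turn (0.86 to 1.08, adjusted p = 0.0078 to 0.0442). With slide as a fixed block the difference was 0.90 (adjusted p = 0.0183).

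Nr1d1, which encodes the paralog REV-ERB alpha, read 1.72, 0.83, 1.75, 1.75 and 0.43 in the 5 controls. After fibre it read −0.16, 0.68 and 0.33 (VCF), 1.03, 0.78 and 1.34 (CCF) and 0.96, 0.86 and 1.09 (RCF). The controls themselves were spread, with control 2 and 5 below the other 3, and control 5 (0.43) lay below VCF 2. The difference was −1.01 ± 0.32 in VCF (adjusted p = 0.288), and −0.24 ± 0.32 in CCF and −0.33 ± 0.32 in RCF. None passed in limma, and in VCF it was −1.01 within slide 1 and −1.42 within slide 2. The B cell markers, given above, were also low in VCF, and likewise in CCF and RCF. The mean of the T and NK cell markers (6 of 6 measured), against the control mean, was −0.68 to −0.46 in VCF, −0.07 to 0.04 in CCF, −0.34 to 0.02 in RCF and −0.17 to 0.08 among controls. That of the erythroid markers (6 of 9 measured) was −1.93 to −0.44 in VCF, 0.11 to 0.55 in CCF, −0.31 to 0.37 in RCF and −0.86 to 0.59 among controls. In each of these 2 lists 5 of 6 genes had an unadjusted p under 0.05 in VCF, against 9.96% of all genes, and limma called 0 there. Of the 5 B cell markers 3 reached that level in each fibre group, against 9.96% of all genes in VCF, 23.7% in CCF and 12.9% in RCF. Limma called 1 of them in CCF, against 5.99% of all genes, and 0 in VCF and RCF. The part of these cell types in the values of Nr1d1 and Dbp was not tested.

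Dbp, the transcription factor at the output of the loop, stood at 6.26, 5.68, 6.32, 5.90 and 5.28 in the 5 controls. Lungs given VCF measured 4.54, 4.75 and 5.39, those given CCF 6.11, 6.16 and 6.42 and those given RCF 6.43, 5.94 and 6.05. VCF 1 and 2 lay below every control, and VCF 3 lay just above control 5. The difference in VCF came to −0.99 ± 0.26 (1.99-fold lower, adjusted p = 0.189), not past limma's threshold. The other Dbp probe gave a difference of like size in VCF (adjusted p = 0.109 over all probes, limma). Within slides 1 and 2 the VCF difference was −1.32 and −0.93. In CCF and RCF Dbp differed by 0.34 ± 0.26 and 0.25 ± 0.26.

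Bmal1, the partner without which the loop stops, measured −2.72, −2.30, −2.81, −2.71 and −2.67 in the 5 controls. The VCF lungs read −1.79, −1.87 and −2.52, the CCF lungs −2.91, −2.95 and −2.92 and the RCF lungs −2.32, −3.34 and −3.40. The CCF lungs spanned 0.048 and lay below every control, a gap seen for 16.3% of all genes. VCF 1 and 2 lay above every control, and RCF 1 stood apart from RCF 2 and 3. The difference was 0.58 ± 0.25 in VCF (adjusted p = 0.468), −0.29 ± 0.25 in CCF (adjusted p = 0.539) and −0.38 ± 0.25 in RCF (adjusted p = 0.583), none past limma's threshold. The remaining 2 Bmal1 probes were not well above background on any array.

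Clock, the other member of that pair, read 1.07, 0.51, 0.91, 1.03 and 0.96 in the 5 controls. After fibre it read 1.31, 1.39 and 1.05 (VCF), 0.79, 1.05 and 1.00 (CCF) and 0.29, 0.94 and 1.27 (RCF). VCF 1 and 2 lay above every control, and RCF covered a span wider than that of the controls. Differences were 0.35 (95% confidence interval −0.11 to 0.80) in VCF, 0.05 (−0.41 to 0.50) in CCF and −0.07 (−0.52 to 0.39) in RCF, the latter 2 without a stable sign across settings. Another Clock probe gave 0.30 ± 0.14 in VCF and 0.31 ± 0.14 in CCF, neither past the threshold, and the remaining probe was above background on 3 arrays.

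**Figure D2:**
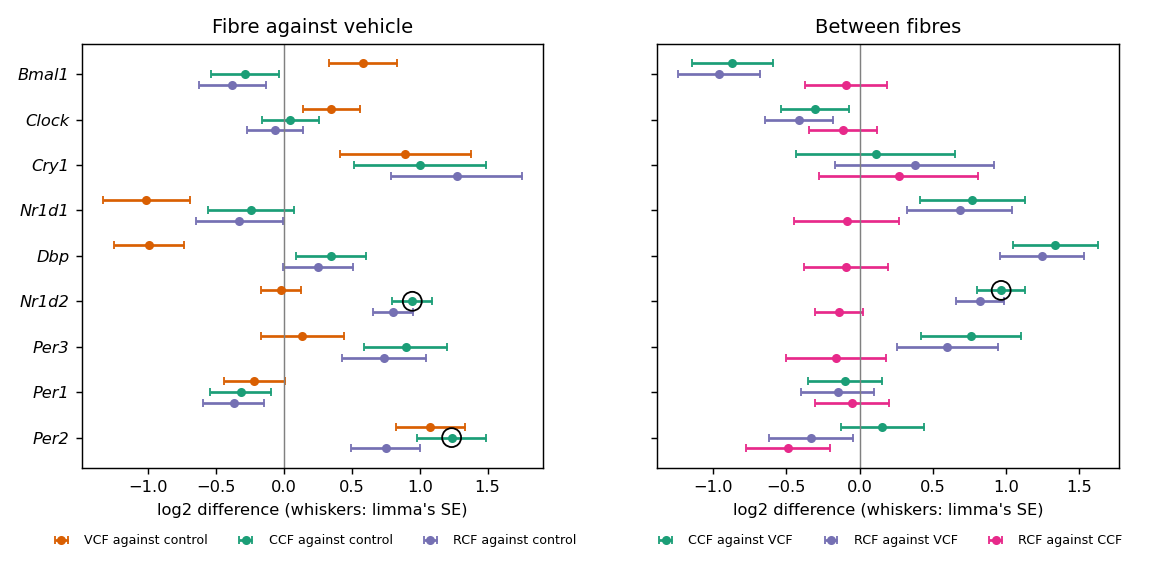
Differences of the 9 clock genes in log2 for each fibre against vehicle (left) and between fibres (right), with the night-phase genes Bmal1, Clock and Cry1 on top. Points are limma's estimates, whiskers its standard errors, and a ring marks an adjusted p under 0.05 (Nr1d2 and Per2 in CCF against control, Nr1d2 in CCF against VCF).

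Between the fibres, 1 of 9 members was called higher in CCF than in VCF, Nr1d2, against 0.222% of all genes called and 0.0949% called higher. Nr1d2 differed by 0.97 ± 0.16 (1.96-fold, adjusted p = 0.0399, limma), and 5 of the 9 members did not overlap between the 3 CCF and the 3 VCF lungs (Nr1d2, Dbp, Nr1d1, Bmal1 and Clock), against 19% of all genes. Dbp was 1.34 ± 0.29 higher in CCF (2.53-fold, adjusted p = 0.0905), Per3 0.76 ± 0.34 higher (adjusted p = 0.352) and Bmal1 differed by −0.87 ± 0.28 (adjusted p = 0.198), none past limma's threshold. Dbp passed with slide as a fixed block (1.34, adjusted p = 0.0212). The Nr1d2 call was lost in 13 of the 14 fits that left out 1 array, each but that without control 2, at differences of 0.84 to 1.10 (adjusted p = 0.0396 to 0.137). The second probe of Nr1d2 gave 0.95 ± 0.22 (adjusted p = 0.113 over all probes, limma), not past the threshold. Within slides 1 and 2 the Nr1d2 difference was 1.20 and 0.51, and that of Dbp 1.49 and 1.04.

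Between RCF and VCF limma called 0 of 9 members (0.00982% of all genes), while 3, Dbp, Nr1d2 and Bmal1, had an unadjusted p under 0.05, against 9.04% of all genes. Dbp was 1.25 ± 0.29 higher (adjusted p = 0.227), Nr1d2 0.82 ± 0.16 higher (adjusted p = 0.176) and Bmal1 differed by −0.96 ± 0.28 (adjusted p = 0.336). Between RCF and CCF limma called 0 of 9 (0.00327% of all genes), and 0 of 9 had an unadjusted p under 0.05, against 9.26% of all genes. Differences there ran from −0.49 to 0.27, and the interval for Nr1d2, from −0.50 to 0.22, leaves differences of that size unresolved. Members not overlapping numbered 3 of 9 between RCF and VCF, against 15.5% of all genes. Between RCF and CCF there was 1 of 9, against 16%.

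**Figure D3:**
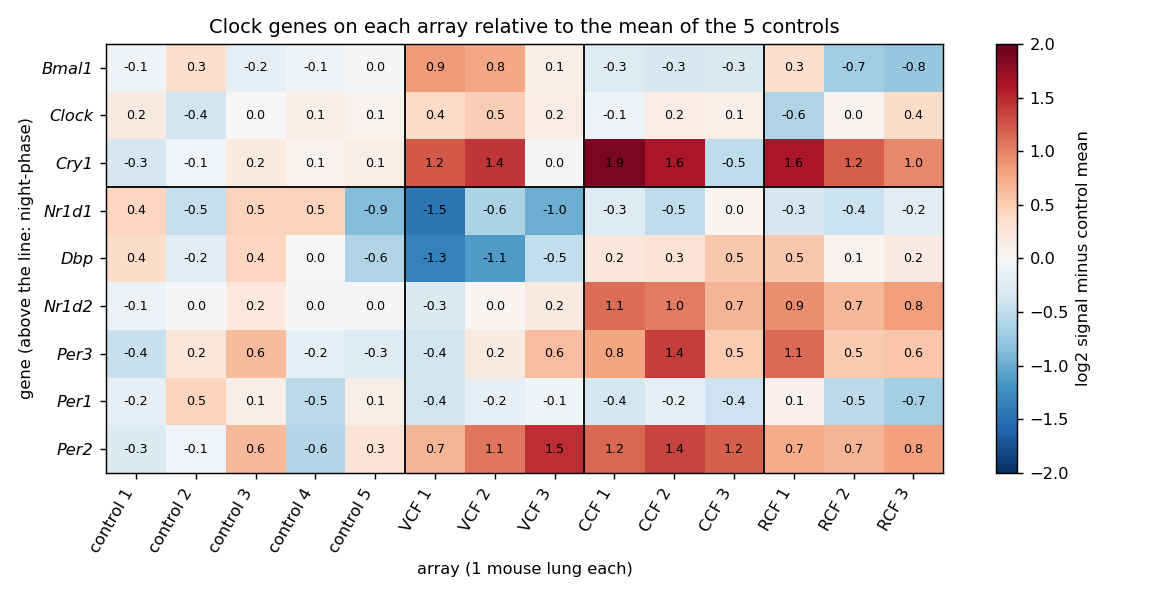
Log2 signal of each clock gene on each array minus the mean of its 5 controls, night-phase genes above the line and day-phase genes below. VCF 1 and 2 are high in Bmal1 and lowest in Dbp, and Nr1d1 is below the control mean in all 3 VCF arrays (−1.45, −0.61 and −0.97). Nr1d2 and Per3 are high in the CCF and RCF arrays, and Per2 is high in the VCF, CCF and RCF arrays.

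The night-phase genes were then set against the day-phase genes on each array, with each gene taken relative to its control mean. The mean of Bmal1, Clock and Cry1 minus the mean of the 6 day-phase genes came to −0.05, −0.03, −0.41, 0.19 and 0.29 in the 5 controls. Among VCF lungs it came to 1.36, 1.00 and −0.02, among CCF lungs to 0.06, −0.07 and −0.66, and among RCF lungs to −0.07, 0.02 and −0.06. VCF 1 and 2, both on slide 1, lay far above the controls, and VCF 3, on slide 2, lay among them. Cry1 carried much of this contrast in CCF and RCF. Without Cry1 the values were −0.63, −0.64 and −0.52 in CCF and −0.66, −0.49 and −0.44 in RCF, against −0.50 to 0.25 among controls, and 1.16, 0.73 and 0.02 in VCF.

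Within a phase class the members did not move as one. In CCF the 6 day-phase genes had a median difference of 0.62, against −0.0033 over all genes, with Nr1d2, Per2 and Per3 high and Per1 and Nr1d1 at negative values. In VCF their median was −0.12, with Per2 at 1.08, Nr1d1 at −1.01 and Dbp at −0.99. Bmal1 minus Dbp, the pair at opposite ends of the loop, came to 2.20, 1.90 and 0.62 in the VCF lungs. The control range was −0.59 to 0.58, and the lowest VCF value lay just above it. The difference was −0.49, −0.59 and −0.82 in CCF and −0.23, −0.75 and −0.92 in RCF, partly inside that range. Bmal1 had its highest group mean in VCF and Dbp its lowest, so that high VCF values follow from the choice of this pair. The difference is thus a description and no separate test of the VCF lungs.

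Pairs of members were compared across the 14 lungs, 36 pairs in all, with permutation tests adjusted by Benjamini-Hochberg over the pairs. The permutations moved all 14 arrays freely, across groups and slides. Their p-values, here and below, thus take in differences between groups and slides as well as between lungs. By Pearson's r 2 pairs passed, Nr1d2 with Per3 and Nr1d1 with Dbp, and by Spearman's rho the first of them. Since Nr1d2 splits the lungs into separate sets, its relation with Per3 was taken within each. The pair and the split were picked after the values were seen, so these are descriptions with no p, over arrays that share slides. In the 8 control and VCF lungs r was 0.90 and rho 0.93, and without the 2 lungs farthest from the median of Nr1d2 r was 0.91. In the 6 CCF and RCF lungs r was 0.70 and rho 0.77, or r was 0.93 without the 2 farthest. Over the 7 arrays of slide 1, r was 0.93.

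Nr1d1 and Dbp, both switched on through E-boxes, had r = 0.75 (permutation p = 0.00158, adjusted p = 0.0284) and rho = 0.68 (permutation p = 0.00851, adjusted p = 0.105). It was 0.70 without the 2 lungs farthest from the median of Nr1d1, 0.77 within slide 1 and 0.72 with the group means removed, and the adjusted p missed 0.05 under each of the other 3 settings run (0.0605 to 0.0785, permutation tests). Dbp and Bmal1, which peak at opposite times, had r = −0.69 (permutation p = 0.00692, adjusted p = 0.0830) and rho = −0.53 (permutation p = 0.0539, adjusted p = 0.220). That relation rested on VCF 1 and 2, the lungs farthest from the median of Dbp, without which r was −0.21. It was −0.83 within slide 1 and −0.16 with group means removed. Of 18 pairs of the same phase class 11 had a positive r, and of 18 pairs of opposite class 13 had a negative one, and all share the same 14 lungs. The latter count was 9 of 18, with a median r of −0.019 against −0.27, when probes of a gene were averaged.

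**Figure D4:**
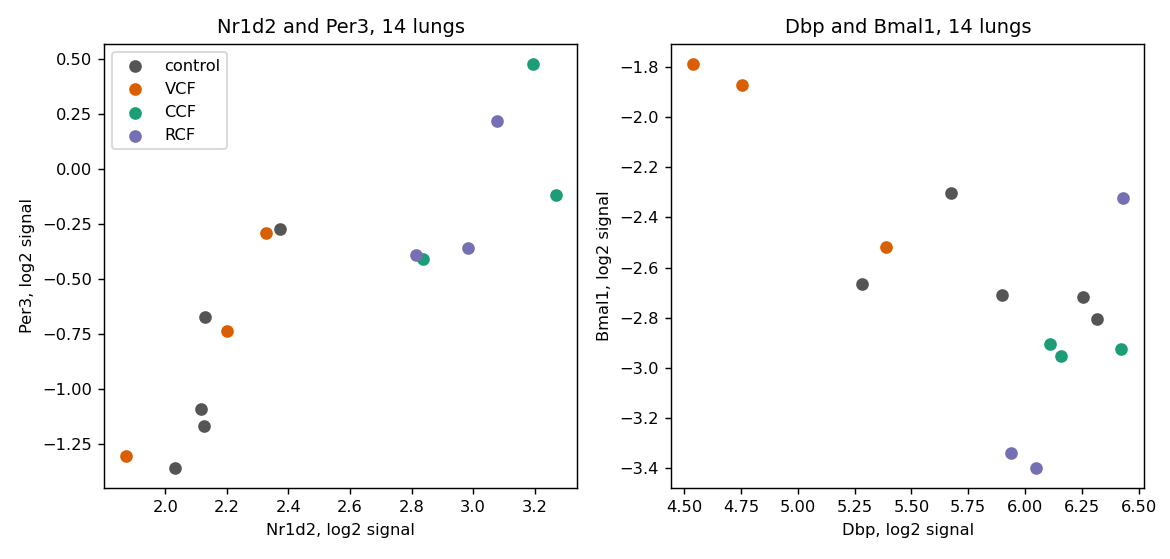
Log2 signal of Per3 against Nr1d2 (left) and of Bmal1 against Dbp (right) in the 14 lungs, coloured by group. Per3 is higher where Nr1d2 is higher within the 8 control and VCF lungs, while the slope on the right is set by VCF 1 and 2 at the lower end of Dbp.

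Where a gene had more probes, their agreement differed. Across the 14 arrays the 2 probes of Dbp correlated at r = 0.94 and those of Nr1d2 at 0.93, and those of Per3 at 0.61. The 2 brighter probes of Clock were at 0.32, those of Per2 at −0.02 and those of Cry1 at −0.28, where the dimmer probe was well above background on 14, 5 and 8 arrays. These r values are descriptions over arrays that share slides and brightness.

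**Figure D5:**
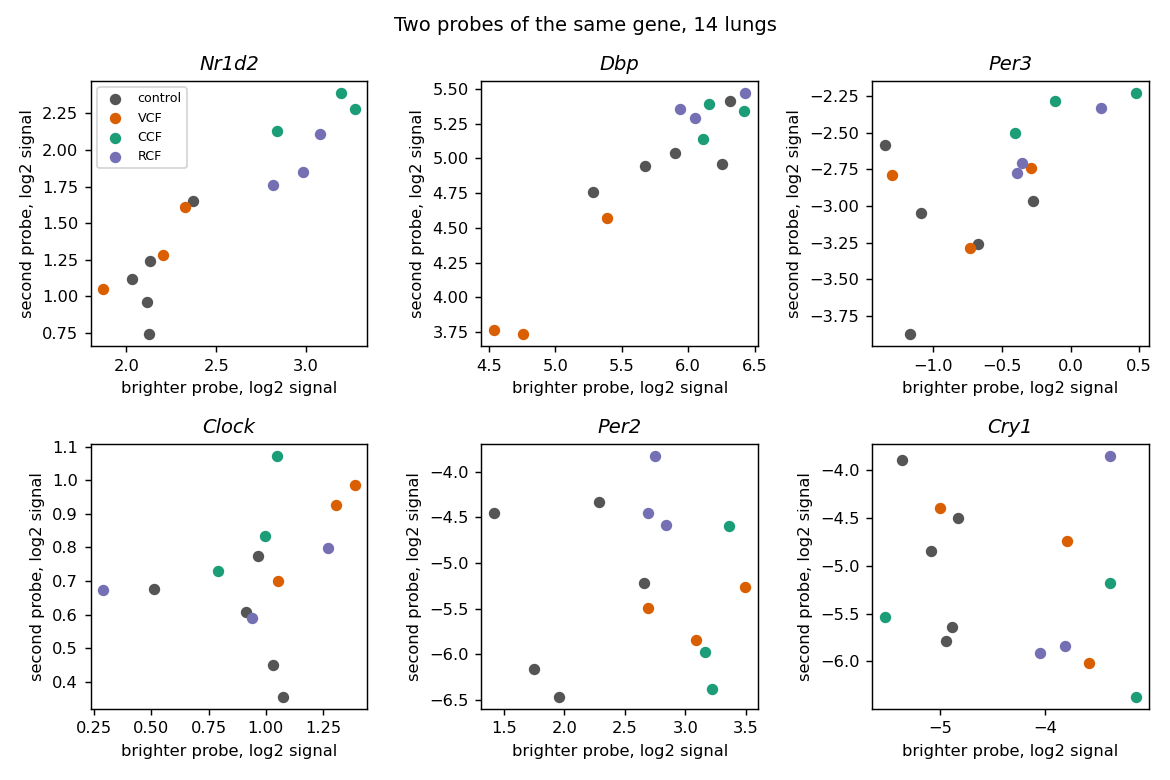
Log2 signal of the dimmer against the brighter probe of 6 clock genes in the 14 lungs, coloured by group. Points of Nr1d2 and Dbp lie along a line, and those of Per2 and Cry1 do not.

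Of 21 further core regulators, such as kinases, ubiquitin ligases and D-box factors, 20 were tested and limma called 0 in each of the 6 comparisons, against the shares of all genes given above (5.99% in CCF). In CCF an unadjusted p under 0.05 was reached by 6 of 20, 5 at positive and 1 at negative values, against 23.7% of all genes. The list median there was 0.21, against −0.0033 over all genes. In VCF 2 of 20 reached that level, against 9.96% of all genes, and in RCF 0 of 20, against 12.9%. Nfil3, which opposes DBP at D-boxes, stood at 0.89 ± 0.28 in VCF (adjusted p = 0.284), and at −0.13 ± 0.28 in CCF and −0.02 ± 0.28 in RCF. Bhlhe41, a repressor at E-boxes, stood at 1.24 ± 0.35 in CCF (adjusted p = 0.0565), 0.40 ± 0.35 in VCF and 0.42 ± 0.35 in RCF.

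The D-box factor gene Tef stood at 0.35 ± 0.15 in CCF (adjusted p = 0.184), 0.13 ± 0.15 in VCF and 0.25 ± 0.15 in RCF. Cry2, the paralog of Cry1, lay between 0.03 and 0.21 against control in the 3 groups, and Ciart, a repressor that cycles with Nr1d1, between −0.23 and 0.20. None of these passed limma's threshold. Of 22 clock output genes shared by many tissues, 1 was called, Pik3r1, the regulatory subunit of PI3 kinase, which fell in CCF by 1.51 ± 0.30 (adjusted p = 0.0189, limma), so that 1 of 22 was called there against 5.99% of all genes. The medians of the output list were 0.22 in VCF, 0.06 in CCF and 0.07 in RCF, against −0.0027, −0.0033 and 0.06 over all genes.

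Glucocorticoids set the phase of peripheral clocks and induce Per1, so that 17 glucocorticoid-induced genes were read beside the members. Limma called 0 of 17 against control in each group. At an unadjusted p under 0.05, 4 of 17 were at positive values in VCF (Fkbp5, Zbtb16, Cdkn1a and Sult1a1), against 9.96% of all genes in either direction. In CCF 2 of 17 passed that level (Fkbp5 at a positive value, Ddit4 at a negative one), against 23.7%, and in RCF 1 of 17 (Mt1, at a negative value), against 12.9%. These 6 genes were named after their values were seen. The mean of the list, against the control mean, split the controls, with −0.52, 0.32, 0.24, −0.50 and 0.46. The VCF lungs read 0.35, 0.67 and 0.48, the CCF lungs −0.06, 0.10 and 0.07 and the RCF lungs −0.17, −0.06 and 0.23. Control 1 and 4 lay below all 9 fibre-treated lungs, VCF 1 among the upper 3 controls, and VCF 2 and 3 above all 5. The list median was 0.27 in VCF, 0.02 in CCF and 0.04 in RCF. The heart markers split the controls likewise, at −1.15, 0.67, 0.80, −1.06 and 0.74. The erythroid markers read −0.86, 0.57, 0.49, −0.80 and 0.59, and the adipocyte markers −1.65, 3.13, 0.49, −1.69 and −0.28. The B cell markers ran the other way, at 0.30, −0.22, 0.03, 0.25 and −0.36. The part of these tissues and cells in the values of the glucocorticoid list was not tested. Fkbp5, a chaperone gene used as a readout of the hormone, stood at 1.30 ± 0.43 in VCF (adjusted p = 0.312) at 0.99 ± 0.43 in CCF (adjusted p = 0.188) and at 0.56 ± 0.43 in RCF (adjusted p = 0.648).

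From 17231 other named genes, the remaining members and provisional symbols, such as Gm and Rik names, were left out of the ranking. Of the genes ranked, those whose level ran most like Nr1d1 over the 14 arrays were Lrmp (r = 0.95), Fcmr (0.93), Fcer2a (0.92), Tmem86a (0.92) and Chst3 (0.92). Fcmr and Fcer2a encode Fc receptors found on B cells. The most opposite to Nr1d1 were Has1 (−0.82), Osgin2 (−0.81), Kbtbd8 (−0.80), Fam216b (−0.78) and Klf2 (−0.78). For Bmal1 those most alike included Opn5 (0.86), Slc16a11 (0.85), Arl3 (0.84) and Speer4f1 (0.84), and the most opposite Tpgs2 (−0.88), Sephs1 (−0.88), B3glct (−0.88), Hnrnpa0 (−0.88) and Antxr2 (−0.88). These genes were picked from all genes ranked for their r, over arrays that share slides.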

How the data were processed

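Total RNA of 14 lungs was labelled with Cy3 and hybridised to 14 one-colour Agilent arrays. Per the file headers, Feature Extraction 10.7.3.1 read the scans, and the deposited intensity is its processed signal, background-subtracted and not scaled between arrays. The median signals of spot and background, also deposited as intensity, served an alternative with normexp. The mean signal was not used here. The authors' deposited log2 table equals log2 of the processed signal minus 1 constant per array, with blanks below background, and its column medians ran from −0.52 to 0.30. Its direction and log2 scale were found from the scanner values, it is not centred per gene, and the origin of the constants stays unknown.

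The log2 processed signal was scaled by subtracting, array by array, its 75th percentile, which was taken without control spots. Outlier spots were left out, spots of a probe were averaged, and a probe was kept if 3 or more arrays showed it well above background (37972). RefSeq accessions gave 1 symbol to 32994 probes and none to 23611. A kept probe without a symbol stood as a gene of its own, so that 17288 of the genes tested had a symbol. For each of 5922 genes with several probes, the one of highest mean stood for the gene. Limma 3.58.1 in R 4.3.3 was fitted to 30568 genes (30564 with RCF) over all 14 arrays, without covariates, for 6 comparisons, with two-sided moderated tests. On data simulated for CCF against control, it recovered 27% of changes of 1 and 63% of changes of 2 in log2. The simulation changed few genes and drew noise independently for each array, without slides, so recovery in the real data may differ. Correlations used 100000 permutations, two-sided. Alternatives were other scalings, filters and probe rules, slide, scan day or replicate number as a block, the deposited table, and each array left out. The number of arrays limits the precision. The array was designed on an older assembly than the annotation, so that no probe positions are given.

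The members and gene lists were chosen with earlier results of these data known. By rule, the text names all members, list genes past the threshold, 5 further clock genes as values, and the 5 genes most and least like Nr1d1 and Bmal1, and some of the genes so chosen are not reported here.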

Additional observations from a re-analysis of the deposited data

Results flagged for a closer look

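Among the controls, 3 of 12 sets of values tested had 1 mouse far from the others, where chance gives about 1 in 20. Nr1d2 in control 3 was the highest control at 2.37, Bmal1 in control 2 the highest at −2.30, and Clock in control 2 the lowest at 0.51. Control 3 is the only control on slide 2.

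The effect of fibre on Nr1d2 differed between CCF and VCF by a test of the difference itself (0.97, adjusted p = 0.0399, limma with Benjamini-Hochberg adjustment). All 3 CCF lungs lay above all 3 VCF lungs. The call was lost in 13 of the 14 fits that left out 1 array (adjusted p = 0.0396 to 0.137), and the second Nr1d2 probe gave 0.95 ± 0.22 (adjusted p = 0.113 over all probes, limma).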

How the results depend on the processing

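Against 2 members called in CCF by limma, 1 was called with no filter, with the mean of probes, with scan day as a block and without the 3 dim arrays, 3 were in the deposited table, and 1 to 2 were when 1 array was left out. In RCF 1 was called, against 0, with normexp and quantile scaling, with probes above background on all 14 arrays, and with slide as a fixed or random block. Between CCF and VCF, where 1 was called, 0 were with no filter, with the mean of probes and without the dim arrays, 2 were with probes above background on all 14 arrays and with either slide block, and 0 to 1 when 1 array was left out. In VCF, and in RCF against each other fibre, 0 were called under every setting run. The night-phase minus day-phase shift in RCF, −0.03, was −0.53 with probes above background on all 14 arrays and without Cry1, the latter chosen after the data were seen, and −0.53 to 0.13 over all alternatives. That in CCF, −0.22, was −0.60 to −0.019 over alternatives. Of the 36 pairs 1 passed under quantile scaling, against 2. With normexp and with the mean of probes 2 passed, but Nr1d1 with Dbp was replaced by Dbp with Bmal1, at a negative r. A setting with no filter, which would bring in Npas2 and so more pairs, was not run for them.

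Arrays with the same replicate number ran more alike than others. Of 18 pairs with the same number, 12 had a residual r over 0.1 (median 0.181), and of 54 with different numbers 11 had (median −0.035). Most arrays with the same number also share a slide, so that number and slide are partly confounded. Slide 1 held arrays of replicate 1 and 2, but pairs within a slide were not compared by number. The labels do not say that the numbers pair mice. With replicate number as a block, which drops control 4 and 5, 0 members were called in each comparison, with Nr1d2 at 0.92 (adjusted p = 0.110) and Per2 at 1.13 (adjusted p = 0.101) in CCF, and Nr1d2 at 0.97 (adjusted p = 0.155) between CCF and VCF. All genes called in CCF numbered 1832, between 2 with that block and 2952 with slide as a random block.

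Signs turned only for differences that did not pass in limma. Per3 in VCF was −0.055 with slide, −0.042 with scan day and −0.0084 with the replicate block, and −0.11 to 0.40 with 1 array left out. Nr1d2 in VCF was 0.036 with quantile scaling, 0.032 with normexp, 0.075 with the mean of probes, 0.11 without the dim arrays and −0.12 to 0.11 with 1 array left out. Clock was −0.0054 in CCF and 0.21 in RCF without the dim arrays, 0.063 with the mean of probes and 0.0011 with the replicate block in RCF, and ran from −0.050 to 0.12 in CCF and −0.28 to 0.21 in RCF with 1 array left out. Cry1 in CCF passed in the deposited table, at 1.61 (adjusted p = 0.0387). With no filter the median of all genes was 0.13 in CCF and 0.16 in VCF. Low signal limits Cry1 and the dimmer probe of Per2. The cause of these shifts was not tested.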
